A study of Rattus norvegicus with 2 samples.

Results

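Solute carriers are the membrane proteins that move sugars, amino acids, ions, metals, nucleotides and vitamins across the plasma membrane and the membranes of organelles. The genes described here are those solute carriers that belong to neither the glucose transporter nor the main amino acid transporter families. They were chosen by symbol: every probe set with a single rat gene whose symbol begins with Slc and a digit was taken, and the families Slc1, Slc2, Slc3, Slc5, Slc7 and Slc38 were left out. This gave 191 genes of 42 families, read by 233 probe sets, of 10412 singly named genes on the arrays. Each gene was represented by its brightest probe set. The symbol rule also takes in Slc4a1ap, which is named after a partner of a carrier and is not a carrier itself. A pair of probe sets that list Slc25a51 as several genes was left out.

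The cells were A7r5, a long-used rat line with smooth muscle traits that came from embryonic aorta. GLUT1 cells had received an adenovirus with the cDNA of human GLUT1, a facilitative glucose transporter, and empty virus cells the same kind of virus without an insert, both for 72 hours at a multiplicity of infection of 10 (1 meaning 100 particles per cell) and in medium with 5.5 mM glucose. Cells of both groups therefore carried an adenoviral vector. RNA from 3 days was combined into 1 pool per group, and each pool was read on 1 array, GLUT1 or empty virus. Spread between the days is therefore not visible, and the values hold for 1 cell line. No value below has a replicate error, no test was possible, and a difference between the groups compares 2 arrays. In pooled bulk RNA, a change in how many cells express a gene and a change in RNA per cell cannot be told apart.

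The deposited intensities had a median of 508 on the GLUT1 array and 508 on the empty virus array, and across the 7742 probe sets above it on both arrays the log2 intensities had a Pearson correlation of 0.994. The labelled cell type was checked against 9 smooth muscle markers, of which 7 lay above the median on both arrays. Acta2 (smooth muscle actin) had an intensity of 16687 in GLUT1 cells and 16303 in empty virus cells, while Myh11, the smooth muscle myosin heavy chain, was dim at 228 and 227. No marker of endothelial cells, adipocytes or neurons lay above the median on both arrays. Of the other lists, 2 of 6 leukocyte markers (Cd14 and C1qb), 1 of 4 epithelial (Krt8) and 1 of 4 skeletal muscle markers (Acta1) did. Krt8 was bright, at 6500 in GLUT1 cells and 6193 in empty virus cells. Cd14 was read at 1398 in GLUT1 cells and 1235 in empty virus cells, and C1qb at 1014 and 1352. The summed intensity of the leukocyte list was 3492 in GLUT1 cells and 3879 in empty virus cells. The rat probe set of Slc2a1 was read at 3121 in GLUT1 cells and 2902 in empty virus cells, and whether it can bind the human transgene is not known here.

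As background, the Slc25 carriers shuttle phosphate, nucleotides, citrate and amino acids across the inner mitochondrial membrane and so link glycolysis to respiration. Slc35 proteins include those that bring nucleotide sugars into the Golgi for glycosylation. Slc30 and Slc39 proteins export and import zinc, and Slc4 and Slc12 proteins set cell pH, chloride and volume. In vascular smooth muscle the best studied of these genes are Slc12a2, the sodium-potassium-chloride cotransporter, Slc8a1, the sodium-calcium exchanger, and Slc20a1, the phosphate importer linked to calcification.

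Signals above the array median on both arrays were seen for nearly all Slc35 genes and for no carrier of organic ions and bile acids. The Slc35 family is grouped here as nucleotide sugar carriers, although some members carry other cargo or have none settled. A gene is called measured here when its brightest probe set exceeded the array median on both arrays. Of the 191 genes 78 were measured, or 40.8%, whereas 57.4% of all singly named genes on the arrays were. Without Slc4a1ap 77 of 190 were measured. In the Slc35 group 11 of 12 genes were measured, among zinc carriers 11 of 17, mitochondrial carriers 18 of 30 and chloride-with-cation carriers 5 of 7. The mitochondrial share, 60%, was near that of all named genes. None of the 17 organic ion and bile acid carriers and none of the 6 carriers of other anions was measured. Probe sets differ in binding and the rule depends on the probe set, so an unmeasured gene is not shown to be silent, and brightness is not compared between genes.

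**Figure D1:**
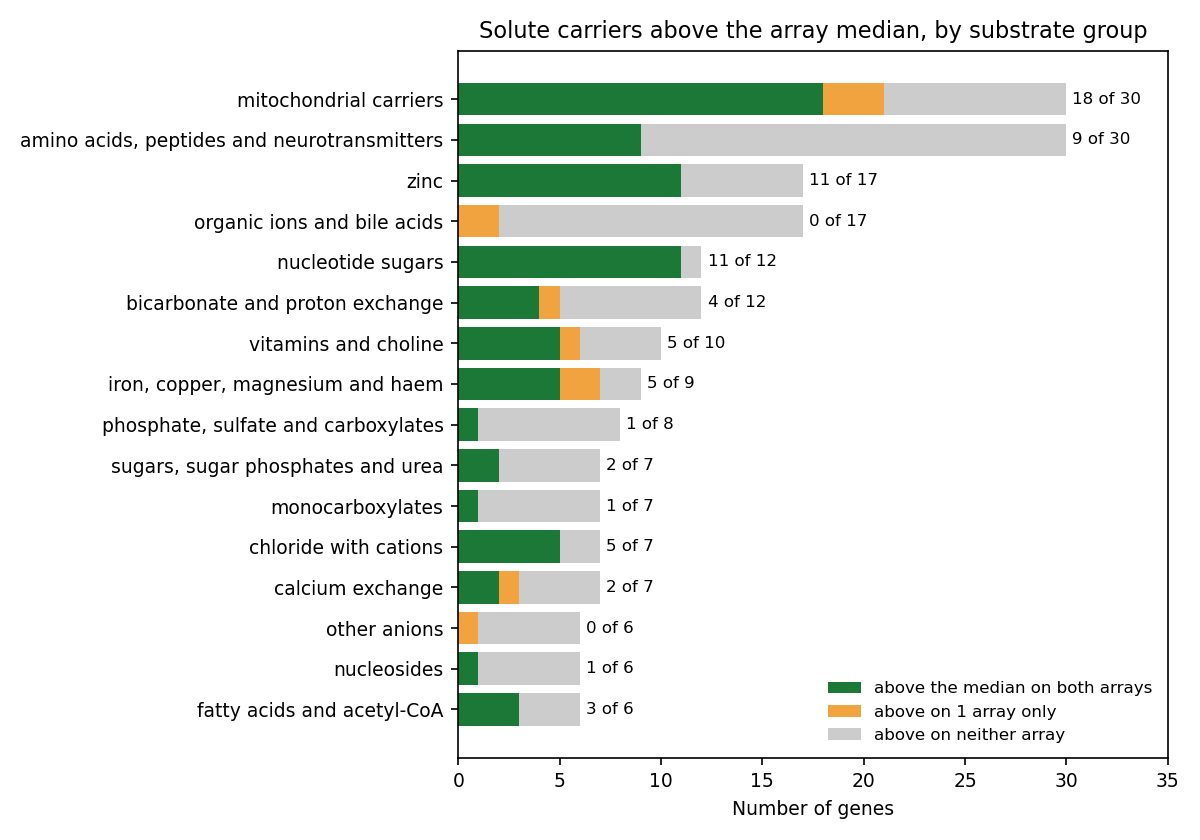
Number of genes (horizontal axis) in each substrate group, split into those above the array median of 508 on both arrays, on 1 array only and on neither. In the nucleotide sugar (Slc35) group 11 of 12 genes exceeded it on both arrays. For organic ions and bile acids the count was 0 of 17.

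The rule left 113 genes unmeasured. Of these 102 lay at or below the median on both arrays, among them 41 at or below an intensity of 175 on both, the floor used for ratios. The other 11 exceeded the median on 1 array only, 6 of 191 on the GLUT1 array and 5 of 191 on the empty virus array. Over all 10412 named genes these were 154 (1.48%) and 134 (1.29%), which are smaller shares. Counts of 6 and 5 are too small to set the carriers apart. Of these 11, 2 were higher and 4 lower with GLUT1 past 1.2-fold, against 27.1% and 26.7% of all genes above the median on 1 array only, where the rule itself favours a difference. By 2-fold 0 were higher and 1 lower, against 0% and 1.39%. The measured genes nearest the threshold were Slc39a14, at 511 in GLUT1 cells and 526 in empty virus cells, and Slc25a15, at 517 and 523. Just outside were Slc49a4, at 500 in GLUT1 cells and 531 in empty virus cells, and Slc8a2, at 512 and 494.

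Differences between GLUT1 and empty virus cells were small across the measured carriers. None of the 78 differed by 2-fold, a log2 ratio of 1, in either direction, and 0.0167% of all measured genes were higher and 0% lower by that size. At 1.2-fold, a log2 ratio of 0.26, 3 were higher and 3 lower with GLUT1, and 72 lay inside. Over all 5976 measured genes 3.23% were higher and 2.21% lower by that size, so the counts among carriers, 3 of 78 each way, were near the background. The median log2 ratio of the 78 was 0.01, with 40 above and 38 below 0, against a median of 0.01 and 52.2% above 0 over all measured genes. Their SD was 0.14, against 0.13 over all measured genes.

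The 6 genes past 1.2-fold were Slc19a1, Slc44a1 and Slc25a33 on the higher side and Slc12a9, Slc35f6 and Slc23a2 on the lower. Each is set beside its local spread, which is the scaled median absolute deviation of log2 ratios among the 500 probe sets of most similar brightness that passed the median on both arrays. This spread holds array noise and real differences together. Over the 78 genes it ran from 0.073 to 0.18, and no ratio exceeded 3.44 times its own spread.

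**Figure D2:**
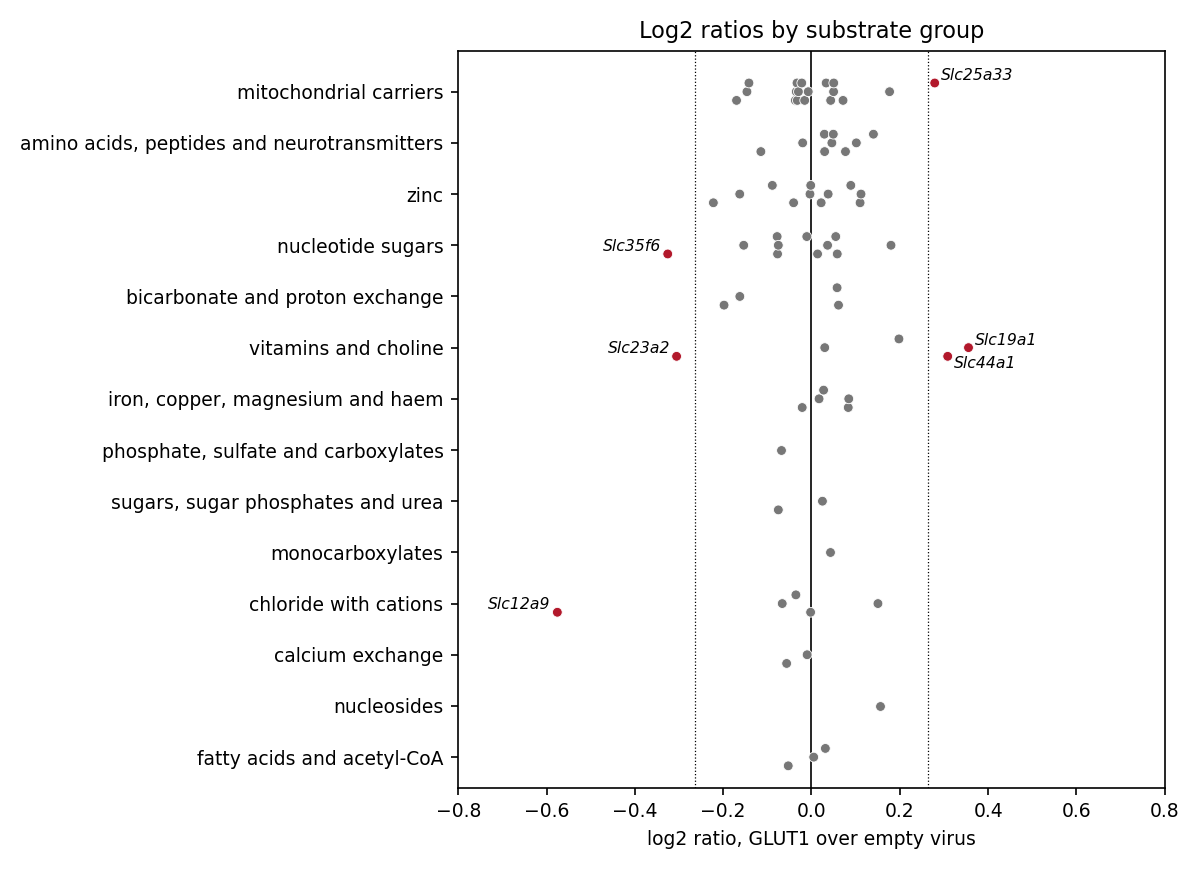
Log2 ratio of GLUT1 over empty virus (horizontal axis) for the 78 measured genes by substrate group, 1 point per gene with no error bar because each group is 1 array. Dotted lines mark 1.2-fold; the 6 named genes in red lie beyond them, and Slc12a9 is lowest at -0.58.

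The largest difference among the 78 was that of 1 gene of the Slc12 family. Slc12a9, a member of the cation-chloride family whose cargo is less settled than that of its relatives, was read at 765 in GLUT1 cells and 1141 in empty virus cells, a log2 ratio of -0.58 and 1.49-fold lower with GLUT1. Its local spread was 0.17, and only 1 probe set read it. The 4 other measured members lay between -0.07 and 0.15. Slc12a2, which loads cells with chloride, was read at 3572 in GLUT1 cells and 3580 in empty virus cells, a log2 ratio of 0.00. The potassium-chloride exporters Slc12a4, Slc12a5 and Slc12a7 had log2 ratios of -0.04, -0.07 and 0.15. Slc12a9 was picked as the largest difference among the 78, and over all 5976 measured genes the lowest log2 ratio was -0.65. The other measured members of its family differed less between the arrays. The kinases that switch this family on or off were also close to 0: Wnk1 and Oxsr1 had log2 ratios of -0.07 and -0.14, and none of the 3 measured passed 1.2-fold.

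Of the 5 measured carriers of vitamins and choline, 2 were higher and 1 lower past 1.2-fold, against 3.23% and 2.21% of all measured genes. These did not share 1 direction, and 5 genes are too few to set the group apart. Slc19a1, the reduced folate carrier, was read at 1148 in GLUT1 cells and 898 in empty virus cells, a log2 ratio of 0.36, or 1.28-fold higher, with a local spread of 0.15. Slc23a2, which brings ascorbate into cells, was read at 1144 in GLUT1 cells and 1415 in empty virus cells, a log2 ratio of -0.31 with a spread of 0.14. Its second probe set was dim, at 321 in GLUT1 cells and 341 in empty virus cells. These genes differed in opposite directions, but neither stands for its substrate: the folate carrier Slc46a1 and the ascorbate carrier Slc23a1, both unmeasured, had log2 ratios of -0.46 and 0.31. Slc44a1, a choline carrier, was read at 1465 in GLUT1 cells and 1184 in empty virus cells by its brightest probe set, a log2 ratio of 0.31. A second probe set above the median gave 922 in GLUT1 cells and 1013 in empty virus cells, a log2 ratio of -0.13, and a dimmer one gave 457 and 650, so the probe sets of this gene do not give 1 direction. Slc52a2, a riboflavin carrier, had a log2 ratio of 0.20 and Slc44a2 of 0.03. The median of the 5 measured genes was 0.20, against 0.01 over all measured genes, and it was 0.03 when each gene was read by the mean of its probe sets.

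Among the Slc25 carriers, 18 of 30 were measured, with a median log2 ratio of -0.02, 7 above and 11 below 0. The carriers that feed oxidative phosphorylation were bright and nearly equal on both arrays. Slc25a3, the phosphate carrier, was read at 23400 in GLUT1 cells and 23780 in empty virus cells, a log2 ratio of -0.02. The ADP/ATP translocases were Slc25a4, at 12696 in GLUT1 cells and 13014 in empty virus cells, and Slc25a5, at 11074 and 10703, with log2 ratios of -0.03 and 0.05. Slc25a39, a carrier needed for mitochondrial glutathione, had a log2 ratio of -0.03.

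The carboxylate and malate-aspartate carriers pass carbon and reducing equivalents between the cytosol and mitochondria, and 6 of their 8 genes were measured. Slc25a1, the citrate exporter, was read at 7009 in GLUT1 cells and 7051 in empty virus cells, a log2 ratio of -0.01. Slc25a11, the oxoglutarate-malate carrier, had a log2 ratio of -0.03 and Slc25a10, the dicarboxylate carrier, of -0.14. The aspartate-glutamate carriers pointed apart: Slc25a12 was read at 637 in GLUT1 cells and 564 in empty virus cells, a log2 ratio of 0.18, and Slc25a13 at 1757 and 1946, a log2 ratio of -0.15. These were 1.06 and 1.32 times their local spreads in size. The glutamate carrier Slc25a22 had a log2 ratio of -0.03. Of the 6, 1 lay above and 5 below 0, against 52.2% above 0 over all measured genes. Such a count of 6 genes is too small to set the class apart.

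Of the other measured Slc25 genes, Slc25a33, a pyrimidine nucleotide carrier, had the highest ratio. It was read at 765 in GLUT1 cells and 631 in empty virus cells, a log2 ratio of 0.28 with a local spread of 0.18, while its close relative Slc25a36 had -0.04. Slc25a20, which brings acylcarnitines in for fatty acid oxidation, was read at 1050 in GLUT1 cells and 1027 in empty virus cells, a log2 ratio of 0.03. Slc25a17, which sits in peroxisomes, had a log2 ratio of 0.07. Slc25a44 and Slc25a15, the ornithine carrier, had 0.04 and -0.02. Slc25a30 had -0.17, the lowest of the 18. All 18 but Slc25a48 were read by 1 probe set each, and the second probe set of Slc25a48 gave -0.21 where the first gave 0.05.

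**Figure D3:**
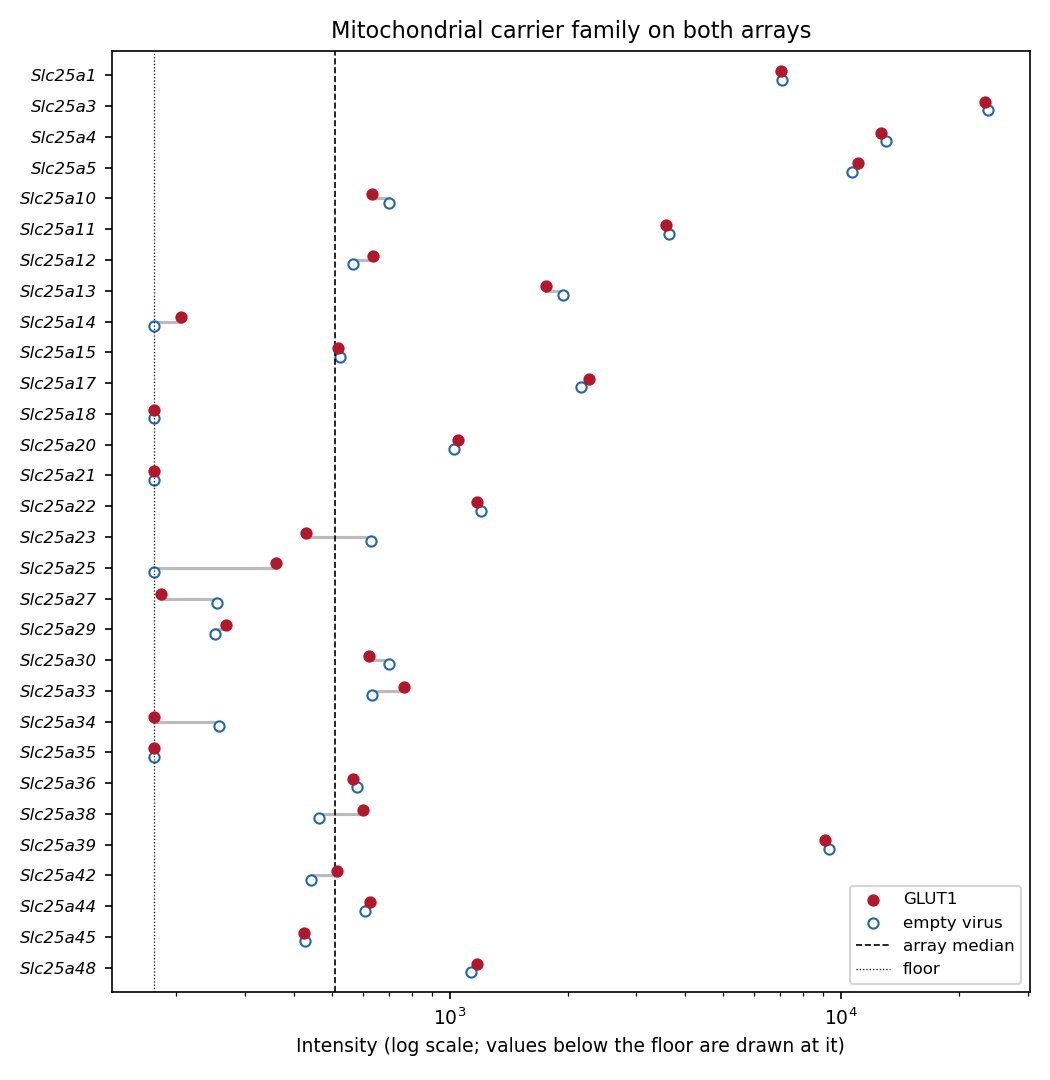
Intensity (horizontal axis, log scale) of the 30 Slc25 genes in GLUT1 cells (filled points) and empty virus cells (open points), 1 array each; the dashed line is the array median of 508 and the dotted line the floor of 175. Most pairs overlap, while Slc25a25 is separated towards higher values in GLUT1 cells and Slc25a23, Slc25a34 and Slc25a27 towards lower.

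The widest differences in the Slc25 family lay among its dim members. Slc25a25 and Slc25a23 both encode calcium-regulated carriers that exchange ATP-magnesium for phosphate. Slc25a25 was read at 360 in GLUT1 cells and 157 in empty virus cells, a log2 ratio of 1.04 with the empty virus value raised to the floor of 175. That value depends on the floor: it was 1.2 with a floor at the 10th percentile (62.1) and 0.11 with one at the 40th (334). Slc25a23 was read at 429 in GLUT1 cells and 628 in empty virus cells, a log2 ratio of -0.55. Both are read by 1 probe set and neither exceeded the median on both arrays, so no brightness-matched spread is given for them. Slc25a38, the glycine carrier needed for haem, was read at 598 in GLUT1 cells and 462 in empty virus cells, and Slc25a42, a coenzyme A carrier, at 514 and 441. Slc25a34 was read at 92 in GLUT1 cells and 257 in empty virus cells, a log2 ratio of -0.55 with the GLUT1 value raised to the floor. The brightest of 3 probe sets of Slc25a27 gave 183 in GLUT1 cells and 254 in empty virus cells, a log2 ratio of -0.47.

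The upstream sequences of these genes are given because they show what the 250 bases before the annotated start hold where the arrays differed. They were chosen after the values were seen, come from RefSeq on build GRCr8, and are written 5′ to 3′ on the gene's strand. Capitals mark matches on either strand to TGACG, the core of the cyclic AMP response element TGACGTCA, which is capitalised in full where TGACG occurs on both strands, and to the E-box CACGTG. The windows are chr3:36116582-36116831 (minus strand) for Slc25a25, chr5:165502974-165503223 (minus) for Slc25a33, chr9:1985366-1985615 (minus) for Slc25a23 and chr12:25005549-25005798 (plus) for Slc12a9.
Slc25a25: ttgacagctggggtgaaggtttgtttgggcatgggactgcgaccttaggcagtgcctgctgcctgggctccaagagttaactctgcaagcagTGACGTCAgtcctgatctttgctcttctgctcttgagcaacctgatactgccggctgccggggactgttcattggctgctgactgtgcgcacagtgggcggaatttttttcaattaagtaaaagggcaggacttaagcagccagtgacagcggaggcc
Slc25a33: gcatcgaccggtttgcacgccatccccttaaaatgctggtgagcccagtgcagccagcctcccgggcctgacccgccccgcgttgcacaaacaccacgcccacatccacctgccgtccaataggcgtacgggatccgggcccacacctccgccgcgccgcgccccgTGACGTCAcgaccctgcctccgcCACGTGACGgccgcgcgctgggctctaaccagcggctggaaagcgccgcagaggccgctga
Slc25a23: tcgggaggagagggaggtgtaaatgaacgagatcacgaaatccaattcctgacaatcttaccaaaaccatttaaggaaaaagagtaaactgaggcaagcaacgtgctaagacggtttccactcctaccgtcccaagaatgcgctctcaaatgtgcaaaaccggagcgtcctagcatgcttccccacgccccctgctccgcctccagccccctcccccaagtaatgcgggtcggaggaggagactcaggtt
Slc12a9: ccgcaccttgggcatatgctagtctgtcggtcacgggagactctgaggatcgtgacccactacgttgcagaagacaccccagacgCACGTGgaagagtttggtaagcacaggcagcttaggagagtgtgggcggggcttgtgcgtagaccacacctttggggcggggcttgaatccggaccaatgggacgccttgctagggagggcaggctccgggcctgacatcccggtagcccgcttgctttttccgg

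Slc25a25 held the full element TGACGTCA starting 158 bases before the start, and Slc25a33 held it at 84 bases, followed at 61 bases by an E-box that overlaps a further TGACG. Slc12a9 held 1 E-box, at 165 bases, and Slc25a23 held neither motif. Among the other carriers the full element was found for Slc46a1 and Slc18a2, both unmeasured, with log2 ratios of -0.46 and 0.23. Genes with the element thus did not share 1 direction, and whether it bears on these values was not tested. A window was listed for 164 of the 191 genes. The full element was found in 2 of 28 Slc25 windows (7.14%), in 2.44% of the carriers' windows, in 2.65% of those of all named genes on the arrays and in 1.7% of all 27457 listed windows. The E-box was found in 18 of 164 (11%), against 7.91% of named genes and 5.79% of all windows, but in 1 of 28 Slc25 windows (3.57%). TGACG was found in 20.7% of the carriers' windows, 25% of Slc25 windows, 26.6% of named genes and 19% of all. The motif of NRF1, a regulator of nuclear genes for mitochondria, was searched as GCGC and TGCGC with any base between them, and was found in 0 of 28 Slc25 windows, in 4.88% of the carriers' windows, 8.25% of named genes and 4.17% of all. A match is a run of letters, not a shown binding site.

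Genes that work beside these carriers in lactate, pyruvate and mitochondrial transport were all measured. Slc16a1, the lactate and pyruvate carrier of the plasma membrane, was read at 1932 in GLUT1 cells and 1877 in empty virus cells, a log2 ratio of 0.04. Slc16a3, the lactate exporter of glycolytic cells, was dim at 289 in GLUT1 cells and 267 in empty virus cells, and Slc16a7 at 453 and 504. Of the 7 Slc16 genes only Slc16a1 was measured. In the list of lactate and pyruvate handling, none of 6 measured genes passed 1.2-fold, and the farthest from 0 were Ldhb at 0.14 and Ldha, the lactate dehydrogenase subunit of glycolysis, at 0.10. Bsg, the chaperone of Slc16a1, had a log2 ratio of -0.04. None of the 6 genes of mitochondrial pores and uncoupling passed 1.2-fold, with 5 above and 1 below 0, and Tspo at 0.19 and Ucp3 at 0.16 were farthest.

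Of the Slc35 genes all but Slc35a2 were measured, and the median log2 ratio of those measured was -0.01, with 5 above and 6 below 0. Slc35f6, whose place in this family does not fix a cargo, was read at 594 in GLUT1 cells and 745 in empty virus cells, a log2 ratio of -0.33 with a spread of 0.17. Slc35b1, which brings ATP into the endoplasmic reticulum, was read at 5377 in GLUT1 cells and 5676 in empty virus cells, a log2 ratio of -0.08, and its second probe set gave -0.07. Slc35c1, the GDP-fucose carrier, had -0.15 and Slc35b2, the carrier of the sulfate donor PAPS, 0.18. Slc35a1, the CMP-sialic acid carrier, had -0.01 and -0.03 from its pair of probe sets above the median. Slc35a4 and the members of unsettled cargo Slc35e1, Slc35e3 and Slc35e4 lay between 0.01 and 0.06, and Slc35b4 and Slc35f5 had -0.08 each.

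None of the 11 measured zinc carriers passed 1.2-fold, and their median log2 ratio was 0.00. Slc39a7, which releases zinc from the endoplasmic reticulum, was read at 2919 in GLUT1 cells and 2925 in empty virus cells. Slc39a1, an importer at the plasma membrane, had a log2 ratio of -0.16 and Slc39a13 of 0.11, while Slc39a11, Slc39a10 and Slc39a14 lay between -0.04 and 0.04. Among the measured exporters Slc30a4, at 782 in GLUT1 cells and 913 in empty virus cells, had the lowest ratio at -0.22, Slc30a5 had 0.11, and Slc30a6 0.00. Slc30a3 had -0.09 and Slc30a9 0.09. Slc30a1, the zinc exporter of the plasma membrane, was dim at 326 in GLUT1 cells and 322 in empty virus cells, and Slc30a2 was dim at 169 and 298.

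Carriers of iron, copper, magnesium and haem lay between -0.02 and 0.08 in 5 measured genes. Slc31a1, the copper importer, was read at 3891 in GLUT1 cells and 3821 in empty virus cells, a log2 ratio of 0.03, but its other probe sets, both above the median on each array, gave -0.13 and -0.23. Slc48a1, a haem carrier, had -0.02. Slc41a3, of a magnesium carrier family, had 0.02. Slc40a1, the iron exporter ferroportin, was read at 1249 in GLUT1 cells and 1180 in empty virus cells, a log2 ratio of 0.08. Its second probe set gave -0.23. Slc11a2, the iron importer, had 0.08 and -0.09 from its probe sets. In the list of zinc, iron and copper handling, 1 of 6 measured genes passed 1.2-fold: Atox1, the copper chaperone, had a log2 ratio of 0.27, and Hmox1, which breaks down haem, 0.14.

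Among carriers of bicarbonate, protons, calcium and phosphate no measured gene passed 1.2-fold. Slc4a2, an anion exchanger, was read at 2100 in GLUT1 cells and 2019 in empty virus cells, a log2 ratio of 0.06. Slc4a7, a sodium-bicarbonate importer, had a log2 ratio of -0.20, Slc4a1, the anion exchanger of red cells, -0.16, and Slc4a1ap 0.06. Slc4a4 was dim at 207 in GLUT1 cells and 175 in empty virus cells. None of the 5 Slc9 proton exchangers on the arrays was measured, and Slc9a8 came nearest at 559 in GLUT1 cells and 470 in empty virus cells. Slc8a1 was read at 1813 in GLUT1 cells and 1827 in empty virus cells, a log2 ratio of -0.01, and Slc24a3, a potassium-dependent sodium-calcium exchanger, had -0.06. Slc20a1 was read at 4915 in GLUT1 cells and 5160 in empty virus cells, a log2 ratio of -0.07, while Slc20a2 was dim at 432 and 396. None of 5 measured ion pump genes passed 1.2-fold, with Atp2b1, a calcium pump of the plasma membrane, at -0.16 and Atp2a3 at 0.12.

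Amino acid, peptide and neurotransmitter carriers were measured in 9 of 30 genes, and none passed 1.2-fold. Slc6a6, the taurine carrier, was read at 6003 in GLUT1 cells and 5696 in empty virus cells, a log2 ratio of 0.08, and its second probe set gave -0.04. Slc6a9, a glycine carrier, was read at 4586 in GLUT1 cells and 4498 in empty virus cells, with log2 ratios of 0.03, 0.08 and 0.45 from its 3 probe sets. Slc6a8, the creatine carrier, had 0.14 and -0.10. Slc6a7 and Slc6a3, carriers of proline and dopamine known from neurons, were above the median at log2 ratios of -0.02 and 0.03, and Slc6a20a had 0.10. The lysosomal Slc15a4 and Slc66a1 had -0.11 and 0.05, and Slc66a2 had 0.05. None of the 5 vesicular and phosphate carriers of Slc17 was measured.

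The remaining groups had few measured genes. Slc27a4, a fatty acid transport protein, was read at 2944 in GLUT1 cells and 2883 in empty virus cells, a log2 ratio of 0.03, Slc27a1 had -0.05, and Slc33a1, which brings acetyl-CoA into the endoplasmic reticulum, 0.01. Slc37a4, the glucose-6-phosphate carrier of the endoplasmic reticulum, was read at 755 in GLUT1 cells and 796 in empty virus cells, a log2 ratio of -0.08. Slc50a1, a sugar carrier, had 0.02. Slc29a2, an equilibrative nucleoside carrier, was read at 996 in GLUT1 cells and 895 in empty virus cells, a log2 ratio of 0.16, and its second probe set, above the median only in empty virus cells, gave -0.42. Slc29a1 was dim at 128 in GLUT1 cells and 142 in empty virus cells.

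The organic ion carriers were dim on both arrays, with 2 exceptions on 1 array each. Slc22a8, an organic anion carrier of kidney, was read at 314 in GLUT1 cells and 635 in empty virus cells, a log2 ratio of -1.01. Slc22a5, the carnitine importer, was read at 560 in GLUT1 cells and 448 in empty virus cells, a log2 ratio of 0.32. The other 12 Slc22 genes lay between -2 and 360 in GLUT1 cells and between -7 and 391 in empty virus cells. The sister family of organic anion carriers, Slco, was also mostly dim, with 2 of 9 genes measured, neither past 1.2-fold, and Slco1a4 and Slco2b1 at 0.07 and -0.05. Over all 113 unmeasured carriers, 1 was higher and 1 lower by 2-fold. Among all 4436 unmeasured genes 4 were higher (0.0902%) and 4 lower (0.0902%), and 1 carrier each way is too few to compare. With the floor at the 40th percentile 0 were higher and 0 lower. Past 1.2-fold were 13 higher and 13 lower, against 10.8% and 10.4% of all unmeasured genes, so these 1.2-fold counts were near the background. Besides Slc22a8 and Slc25a23, the other genes above the median in empty virus cells only were Slc46a1, a proton-coupled folate carrier, at a log2 ratio of -0.46, Slc26a1, a sulfate carrier, at -0.34, and Slc49a4 at -0.09.

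**Figure D4:**
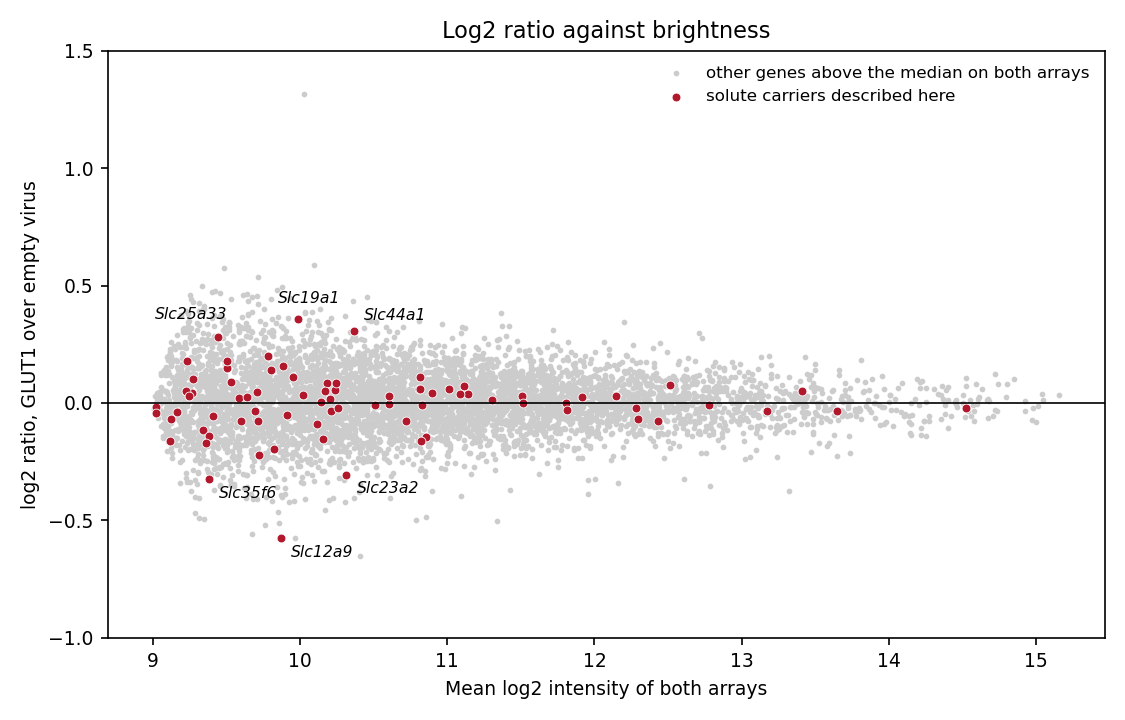
Log2 ratio of GLUT1 over empty virus (vertical axis) against mean log2 intensity (horizontal axis) for the 5976 measured genes, with the 78 solute carriers in red. The carriers lie within the cloud of other genes, which is wider at low brightness; the point at 1.32 is Slc7a5, an amino acid transporter outside the group.

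Of the 191 genes 32 had more than 1 probe set, and 10 of the measured genes had a second one above the median on both arrays. In 3 of the 10 the pair had the same sign and in 7 the opposite sign. Over all 665 named genes with such a pair, 49.3% had opposite signs, and 10 genes are too few to set the carriers apart from that. The pairs of Slc35b1, Slc35a1 and Slc6a9 agreed in sign, and that of Slc44a1, the only one of the 10 past 1.2-fold, did not. The other 5 genes past 1.2-fold had no second probe set above the median.

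**Figure D5:**
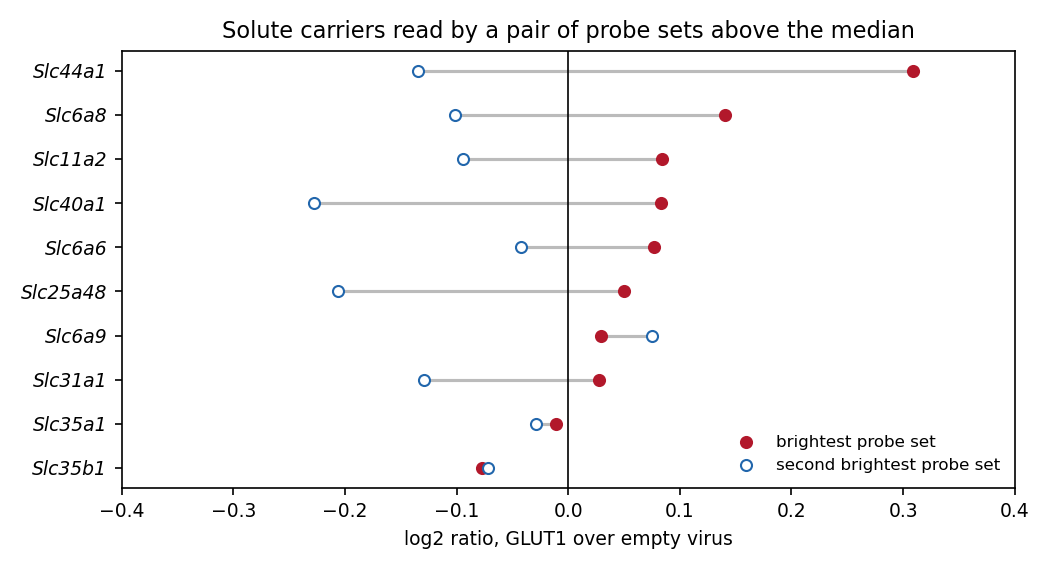
Log2 ratio of GLUT1 over empty virus (horizontal axis) from the brightest (filled) and second brightest (open) probe set of the 10 carriers with a pair above the median on both arrays. In 7 of the 10 the points lie on opposite sides of 0, with the widest gap at Slc44a1, 0.31 and -0.13.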

How the data were processed

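Total RNA of A7r5 cells was pooled over 3 days per group, and 5 µg was labelled with biotin, per the labels' protocols. The deposited table holds 1 linear intensity per probe set and array, rounded to whole numbers, for 15923 probe sets. Both arrays had the same median (508) and quartiles (175 and 1507.5), so the authors had already made the values nearly equal in distribution. For the software, summary method and background correction, the sources used here give nothing, and no detection calls were used. Values at or below 0 made up 3.04% of the GLUT1 array and 3.01% of the empty virus array.

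Gene names came from the platform's annotation and were brought up to date by gene ID with a GRCr8 gene table: 12789 had 1 gene, 312 several and 2822 none, and 12754 of the 12789 IDs were in the current table. From the deposited intensities the GLUT1 array was scaled to a median log2 ratio of 0 over the brighter probe sets (a shift of -0.0013), values under the 25th percentile of both arrays (175) were raised to it, and log2 ratios, GLUT1 over empty virus, were taken. With 1 array per group there is no p-value, error or significance call, and precision is limited by the number of arrays. The calculation was tested on simulated data. Alternatives, some added after seeing the data, were the mean of all probe sets, other floors, filters, folds and scalings.

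The members and lists were chosen with earlier results of these data known. Measured genes were named in every substrate group of up to 8, otherwise the 4 brightest, the 3 highest and 3 lowest ratios and all past 1.2-fold. Some carriers of metabolism or smooth muscle were named whatever their values, and partner lists by the 2 farthest from 0. Other named genes, the unmeasured ones included, were chosen after their values were seen. Python 3.11.15, numpy 2.4.6, pandas 2.3.3 and matplotlib 3.10.9 were used.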

Additional observations from a re-analysis of the deposited data

Results flagged for a closer look

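Slc25a25 lay below the brightness rule and so entered no count of measured genes, yet its signal in GLUT1 cells, 360, exceeded that in empty virus cells, 157, by 2-fold. With the empty virus value raised to the floor of 175, the log2 ratio was 1.04, from 1 probe set. With the floor at the 40th percentile, 334, it was 0.11 and no longer 2-fold. It was 1 of 4 genes higher by this size among the 4436 unmeasured genes.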

How the results depend on the processing

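No paired analysis was possible because there is only 1 array in each group. For the measured genes, scaling and quantile normalization had little to alter, since the deposited arrays were already equalised, and the floors nothing, since these genes lie above each. The counts of 78 measured carriers, 0 past 2-fold each way and 3 past 1.2-fold each way were the same in all 4 of these settings. The mean of all probe sets gave 73 measured, 2 higher and 2 lower past 1.2-fold, and a median of -0.01 in place of 0.01. Filtering at the 75th percentile left 30 measured, with 0 higher and 0 lower past 1.2-fold. With no filter all 191 entered, with 1 higher and 1 lower past 2-fold and 16 higher and 16 lower past 1.2-fold. At 1.5-fold 0 were higher and 0 lower. The Slc25 median ran from -0.03 to 0.00. Unmeasured genes do depend on the floor, in checks chosen after seeing the data. Past 2-fold, 1 was higher and 3 lower at the 10th percentile, and 0 were higher and 0 lower at the 40th. Slc25a25 was then at 1.2 and 0.11, and Slc25a34 at -1.48 and 0.00, against -0.55 at the floor of 175. Slc22a8 was at -0.93 at the 40th. For 71 named genes under 7 alternatives, 336 of 497 values could not or did not change. Of the 18 that the mean of all probe sets changed, 13 stayed within the gene's local spread. Slc44a1 turned to -0.11 with the mean of all probe sets, because its dimmer probe sets are lower with GLUT1. The 5 others that moved were Slc29a2 at -0.13, Slc31a1 at -0.11, Slc40a1 at -0.14 and Slc6a9 at 0.18 with that mean, and Slc4a4 at 0.00 with the floor at the 40th percentile, which lies above both its values.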
